A study of Mus musculus with 4 samples.

Results

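The 7 genes described here encode transcription factors of the myeloid lineage: Cebpa, Cebpb, Cebpe, Spi1, Gfi1, Irf8 and Klf4. They are 7 of the 32285 genes counted in each library and were taken as a named list, with no measured value used to choose them. Single-cell RNA and surface antibody tags were read from mouse bone marrow cells that were donor derived (CD45.2+), lineage negative, Sca1 positive and Kit positive, called LSK cells, at week 10 after transplantation. There was 1 library for each of 4 genotypes: control, Mll3 deleted, Mll4 deleted, and both genes deleted. Mll3 and Mll4, encoded by Kmt2c and Kmt2d, are histone methyltransferases of COMPASS complexes that act at enhancers, and the study asked what each of them contributes to stem cell and myeloid identity. The age and number of donor mice, the allele and Cre line behind each deletion and the state of the hosts are not given in the sources used here.

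LSK cells hold blood stem cells and multipotent progenitors. C/EBP alpha and PU.1, the product of Spi1, open the myeloid programme and drive the first granule enzymes. C/EBP epsilon and Gfi1 then favour granulocytes, and Irf8 and Klf4 favour monocytes and dendritic cells. PU.1 and Irf8 also serve the B lineage, and Gfi1 serves stem cells and lymphocytes.

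Cells were kept if they held 1000 or more genes and no more than 10% of UMIs (unique molecular identifiers, each 1 counted transcript) from mitochondrial genes. Values given in fours run from the control, through the library labelled Mll3 and the one labelled Mll4, to the one labelled Mll3/4, called library order below. The libraries had 7274, 6101, 4793 and 4748 kept cells, with 119328763, 105907176, 120700343 and 50792614 UMIs and medians of 14454, 15381, 21400 and 8920 per cell. Of each library, 27 to 37 barcodes (0.492% to 0.59%) were also held by another library. The Mll4-labelled library stood apart: 62.2% of its barcodes passed the filter, against 92.4% to 94.7% in the others. In it, 1797 cells (37.5%) carried markers of mast cells or basophils, macrophages, plasma cells, or innate lymphoid or T cells. Such cells numbered 93 in the control, 163 in the Mll3-labelled and 369 (7.77%) in the Mll3/4-labelled library. In the Mll3/4-labelled library 4723 of 4748 cells (99.5%) carried B progenitor markers, the summed HSC markers stood at 4.69 CPM (UMIs per 1000000 UMIs of the cells summed) against 493 in the control, and all 5 mast or basophil markers were at 0. Kmt2d reads did not separate the labels (24.6, 21.6, 22.6 and 25.4 CPM in library order). Kmt2c reads stood at 68.9, 35.3, 61.3 and 42.3 CPM, lower in the libraries labelled Mll3 and Mll3/4 than in the others. Counts from the 3' end cannot check an internal deletion, so the libraries are named by their labels. With no replicates there was no test. Intervals are 95% counting intervals and cover counting error only, and a gene is counted as higher or lower where the libraries differed at least 2-fold.

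Promoter sequence is shown for Cebpa and Gfi1 because, of the 5 factors matched to RefSeq entries (GRCm38.p6), they had the lowest and the highest ratio to control in the Mll3/4-labelled library. Cebpe and Spi1 had no entry. The first run is the 250 bases before the Cebpa start, chr7:35119043-35119292 on the plus strand. The second is the 149 bases before the first of 2 listed Gfi1 starts, chr5:107725806-107725954 on the minus strand. It stops short of the 5' UTR of an upstream Gfi1 transcript. Capitals mark matches, on either strand, to TTGCNNAA (a C/EBP dimer motif) or TTGCG (a C/EBP half-site).
Cebpa: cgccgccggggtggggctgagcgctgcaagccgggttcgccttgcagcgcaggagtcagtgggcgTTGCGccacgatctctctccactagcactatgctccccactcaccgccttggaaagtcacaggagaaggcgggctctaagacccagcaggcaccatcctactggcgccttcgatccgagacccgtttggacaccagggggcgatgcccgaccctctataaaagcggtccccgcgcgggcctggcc
Gfi1: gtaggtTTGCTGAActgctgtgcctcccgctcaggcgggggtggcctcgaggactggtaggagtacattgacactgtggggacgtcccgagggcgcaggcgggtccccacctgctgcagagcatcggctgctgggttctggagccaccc
The Cebpa match starts 185 bases before the transcription start and the Gfi1 match 143 bases before it. Of 32851 RefSeq promoter windows of 250 bases, 9.56% held TTGCNNAA and 14.5% held TTGCG. The other motifs searched were GAGGAA (ETS factors such as PU.1), the core of the interferon-stimulated response element (IRF factors), AAATC (Gfi1) and CACCC (Klf factors), held by 23.3%, 2.98%, 32.7% and 52.0% of the windows. In the windows of Cebpb, Irf8 and Klf4 no C/EBP motif was found, and the main Irf8 window held AAATC at 2 places. CACCC was found at 1 place in the Cebpa window and at 2 in each of the windows of Cebpb and the Gfi1 start shown. The window of the other Gfi1 start, chr5:107724344-107724593, held no match to any motif searched. A match is a run of letters, not a bound site.

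Of the lineage-opening factors, Cebpa (ENSMUSG00000034957, chr7:35119293-35121928, plus strand) was counted at 14.7, 14.3, 40.2 and 0.413 CPM in library order. The control and Mll3-labelled intervals overlapped (14.0 to 15.4 and 13.6 to 15.1), the Mll4-labelled library was the highest, and the Mll3/4-labelled library held 21 Cebpa UMIs in all. Spi1 (ENSMUSG00000002111, chr2:91082390-91115756, plus strand) stood at 123, 123, 166 and 6.04 CPM. It was the factor that varied least among the first 3 libraries, with log2 ratios to control of -0.01 for Mll3 and 0.43 for Mll4. In the Mll3/4-labelled library Spi1 was 20.4-fold lower than in the control (18.2 to 22.9), and Cebpa was 34.8-fold lower (23.2 to 57.7).

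Cebpb, which takes over granulocyte output under stress and is used by macrophages (ENSMUSG00000056501, chr2:167688915-167690418, plus strand), stood at 49.6, 75.2, 107 and 3.11 CPM. All 4 intervals were separate, and the Mll3/4-labelled level was 15.9-fold below the control. Cebpe, the factor of secondary granules (ENSMUSG00000052435, chr14:54710360-54712174, minus strand), stood at 5.26, 4.00, 28.9 and 0.0394. The Mll3/4-labelled value was 2 UMIs in the whole library, and its log2 ratio of -6.74 had an interval from -10.11 to -5.20. Cebpe was held by few cells: the 1% of control cells with the most Cebpe carried 88.9% of its UMIs.

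Gfi1, a repressor (ENSMUSG00000029275, chr5:107716657-107726036, minus strand), stood at 12.8, 10.6, 31.9 and 8.96 CPM. It was the member with the most UMIs left in the Mll3/4-labelled library, 455, at a log2 ratio of -0.51 (-0.67 to -0.36). Irf8 (ENSMUSG00000041515, chr8:120736358-120756694, plus strand) stood at 23.3, 33.4, 106 and 5.55, and Klf4 (ENSMUSG00000003032, chr4:55527143-55532466, minus strand) at 1.51, 3.04, 15.7 and 1.02. Both were highest in the Mll4-labelled library. The genes Cebpa, Cebpb and Gfi1 overlap a gene on the opposite strand, Irf8 overlaps an unlisted one on its own strand, and how the counting used strand is not given in the sources used here.

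**Figure D1:**
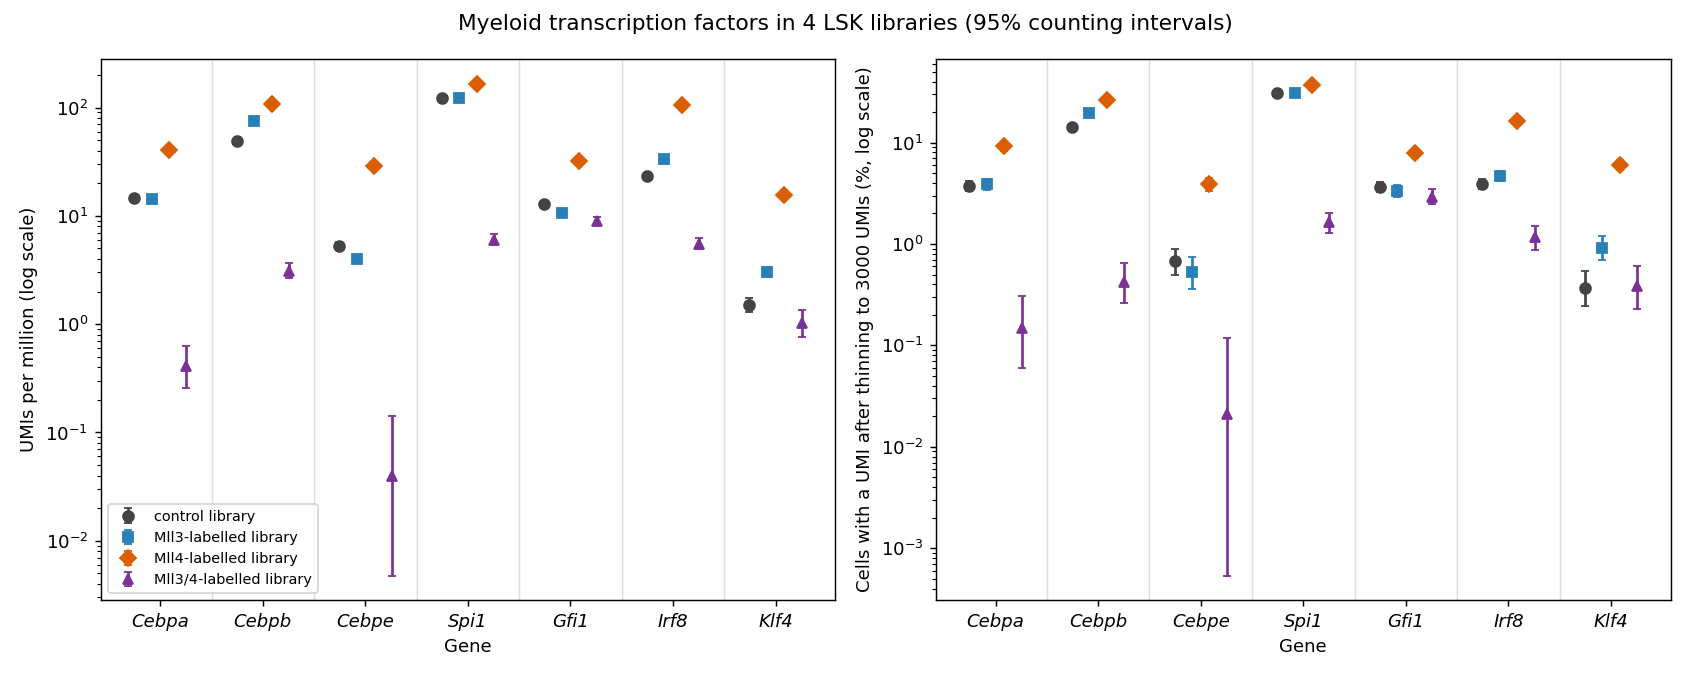
CPM (left, log axis) and share of cells with a UMI after thinning every cell to 3000 UMIs (right, log axis) for the 7 factors, with 95% counting intervals, in each of the 4 libraries. The Mll4-labelled points lie highest for every factor, and the Mll3/4-labelled points for Cebpa, Cebpb, Cebpe, Spi1 and Irf8 lie far below the others while Gfi1 stays at 8.96 CPM.

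Counted together, 6 of 7 factors were at least 2-fold higher than control in the Mll4-labelled library, where 6.98% of 9956 genes averaging 5 CPM or more were. The log2 ratios ran from 1.12 for Cebpb to 3.38 for Klf4, and Spi1 was the exception. In the Mll3/4-labelled library 5 of 7 were at least 2-fold lower, where 11.9% of 9932 genes were, and Gfi1 and Klf4 were not. In the Mll3-labelled library 1 of 7 was higher, Klf4 at a log2 ratio of 1.01 (0.74 to 1.28), where 1.27% of 9889 genes were. Klf4 averaged under 5 CPM there, so it is not among those genes, and 12.2% of genes were higher when no minimum was set, close to 1 of 7. That single call lay on the threshold and was lost under 6 of the alternative settings, with the lowest value at 0.89. The 3 comparisons share the control library.

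The share of cells with a UMI was read at 1 depth, after each cell was thinned to 3000 UMIs and shallower cells (14, 17, 134 and 33) were left out. Spi1 was found in 30.5%, 30.5%, 37.2% and 1.63% of cells in library order, against 78.6%, 78.3%, 76.7% and 4.70% before thinning. Irf8 was found in 3.91%, 4.72%, 16.3% and 1.17% after thinning and in 12.9%, 13.5%, 37.0% and 4.04% before it. At matched depth both shares were highest in the Mll4-labelled library, with intervals separate from the control and Mll3-labelled ones, and the gap was wider for Irf8. For background, after thinning Irf8 and Gfi1 were each found in 1 of 115 control cells with megakaryocyte markers (0.870%, median 19227 UMIs), with an interval of 0.022% to 4.75% that also holds the whole control library's 3.91% and 3.65% (median 14454 UMIs). These cells gave Spi1 in 17.4% and Cebpb in 5.22%, so no background level could be set from them. The cells that did hold Irf8 held a mean of 2.96, 4.30, 7.24 and 1.47 UMIs of it.

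Several factors in the same cell were most frequent in the Mll4-labelled library. After thinning, 3 or more of the 7 were found in 88 control cells (1.21%), 119 Mll3-labelled cells (1.96%), 504 Mll4-labelled cells (10.8%) and 1 Mll3/4-labelled cell (0.0212%). None of the 7 was found in 53.8%, 51.1%, 37.8% and 93.5% of cells in library order.

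Cells were next divided by Elane, Prtn3 and Ctsg, the first granule proteases of neutrophil precursors. Cells with 10 or more of their UMIs per 10000 (granule-high) numbered 678 (9.32%), 1031 (16.9%), 1692 (35.3%) and 5 (0.105%) in library order. This is a range of a score, not a cell type: 726, 1001, 290 and 2 cells lay between 8 and 12, and 93.6% of control cells held at least 1 UMI of the 3 genes. In the Mll4-labelled library 445 granule-high cells (26.3%) also carried mast or basophil markers, against 0 in the control and 1 in the Mll3-labelled library. Of the 445, 102 held 50 or more UMIs of the 3 genes per 10000. Granule-high cells had a median of 34614 UMIs and the rest 18702 in the Mll4-labelled library, while those of the control had 15427 and 14382. In the Mll4-labelled library the 649 cells at 10 to 50 per 10000 had a median of 5971 UMIs. The 1043 cells at 50 or more had 44118. The control medians of these bands were 13845 and 27304. In each of these libraries only the band at 50 or more had a median above that of the rest.

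Cebpa, Cebpe and Irf8 were at least 2-fold higher in granule-high cells of the control, 3 of 7 where 0.96% of genes were. In CPM, Cebpa stood at 46.2 in granule-high and 11.1 in granule-low cells, Cebpe at 34.6 and 1.85, and Irf8 at 70.5 and 17.8. Gfi1 was just under the threshold, at 22.9 and 11.6. In the Mll3-labelled library the same 3 and Gfi1 were higher, 4 of 7 where 0.835% were, with Cebpe at 20.9 and 0.755. In the Mll4-labelled library these 4 were higher too (3.34% of genes were), with Gfi1 at 52.7 and 13.7 and Cebpa at 66.6 and 17.3. Spi1 was 1.52-fold, 1.49-fold and 1.32-fold higher in the granule-high cells of the 3 libraries. Irf8 did not rise evenly with the granule genes in any of the 3 libraries. In the Mll3-labelled library it stood at 39.9 CPM under 5 per 10000, 8.67 at 5 to 10, and 18.8 in the 930 cells at 10 to 50. In the 101 cells at 50 or more it stood at 259, and its call rested on these cells. Over the same bands Irf8 stood at 19.4, 14.0, 44.7 and 172 in the control. In the Mll4-labelled library it stood at 73.1, 31.1, 69.7 and 172, so there too only the highest band was above the lowest.

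Cebpb and Klf4 differed in direction between libraries. Cebpb was higher in granule-high cells of the control (73.1 against 46.9 CPM) and of the Mll3-labelled library (107 against 69.1), and lower in those of the Mll4-labelled library (64.5 against 145). Klf4 stood at 8.27 in granule-high and 22.2 in granule-low cells of the Mll4-labelled library. These 2 factors were the ones at least 2-fold lower there, where 12.2% of genes were. Without the cells carrying mast, macrophage, plasma, or innate lymphoid or T markers, the log2 ratios moved from -1.17 to -0.37 for Cebpb and from -1.43 to -0.69 for Klf4, and neither was called. The cells left out held Cebpb at 296 and Klf4 at 39.7 CPM.

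**Figure D2:**
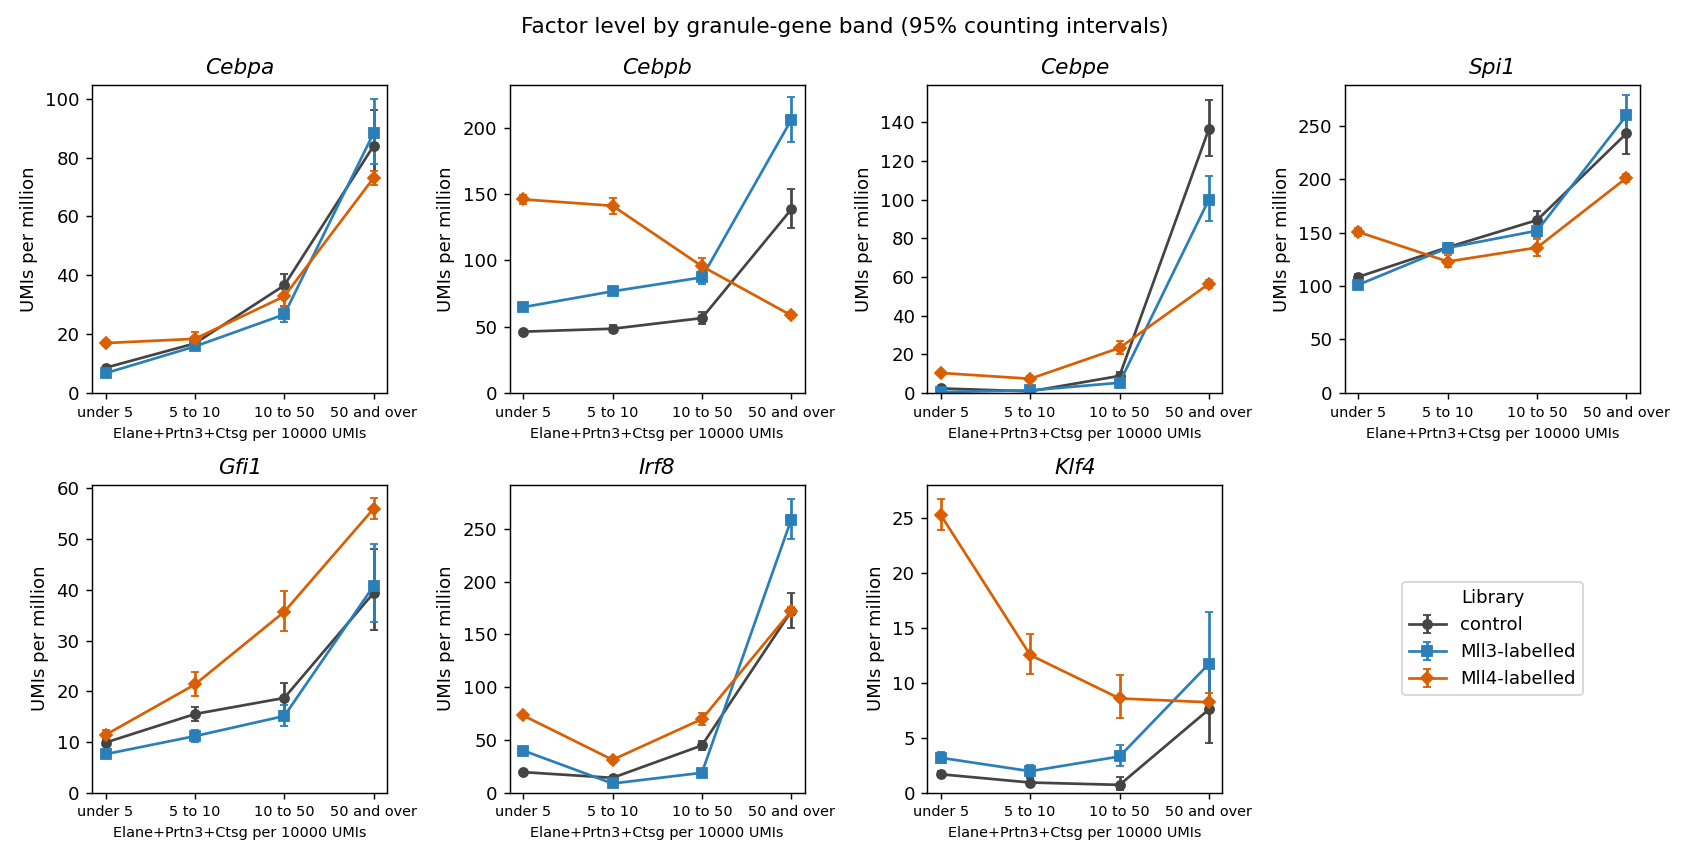
Level of each factor (CPM, 95% counting intervals) in cells with under 5, 5 to 10, 10 to 50, and 50 or more UMIs of Elane, Prtn3 and Ctsg per 10000, in the control, Mll3-labelled and Mll4-labelled libraries. Cebpa ends at 84.0, 88.3 and 73.1 in the highest band, while Cebpb goes down across the bands of the Mll4-labelled library and up in the other 2.

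In the cells with 50 or more granule UMIs per 10000 (87 control, 101 Mll3-labelled and 1043 Mll4-labelled cells) the Mll4-labelled library differed less from the control than over all cells for every factor but Cebpb. Cebpa stood at 84.0, 88.3 and 73.1 CPM, Spi1 at 243, 260 and 201, and Irf8 at 172, 259 and 172. Cebpe was 137, 100.01 and 56.4, and Cebpb was 138.5, 206 and 58.5, so both were lowest in the Mll4-labelled library. Gfi1 was highest there, at 56.0 against 39.4 and 40.8. The bands do not match the cells exactly: the median of Mpo, another early granule enzyme, was 45.4, 57.7 and 88.4 per 10000.

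Set against the control within granule-high cells, Gfi1, Irf8 and Klf4 were at least 2-fold higher in the Mll4-labelled library, 3 of 7 where 6.64% of genes were. Their log2 ratios were 1.20, 1.14 and 1.96, and the last rests on 26 control UMIs. With the division at 50 instead of 10 these became 0.50, 0.00 and 0.08, none was higher, and Cebpb and Cebpe were lower at -1.25 and -1.28. Cebpa, Cebpe and Spi1 changed sign between the divisions, from 0.53, 0.56 and 0.10 to -0.20, -1.28 and -0.27. Within granule-low cells Cebpb, Cebpe, Irf8 and Klf4 were higher, 4 of 7 where 7.43% were, led by Klf4 at 22.2 against 1.44 CPM. Without the 4 marker ranges above Cebpb stood at 72.4 against 46.6 CPM in granule-low cells, which ended its call and left 3 of 7. Weighting each library to the control's mix of granule-high and granule-low cells brought the Mll4-labelled log2 ratio of Cebpa from 1.45 to 0.61 and that of Gfi1 from 1.32 to 0.48, so 4 of 7 stayed 2-fold higher. For the Mll3-labelled library, Klf4 was the 1 factor higher within granule-high cells (2.26% of genes were), and Cebpe was the 1 factor lower within granule-low cells, at 0.755 against 1.85 (0.848% were). Both averaged under 5 CPM, and with no minimum these shares of genes were 15.5% and 10%, close to 1 of 7. For the Mll3/4-labelled library, granule-low cells gave the same 5 factors lower as all cells, where 12% of genes were. Its 5 granule-high cells are too few for a level.

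Irf8 and Cebpe were found together in few granule-high cells. Among thinned cells with 50 or more granule UMIs per 10000, Irf8 was found in 2 of 23 control cells with Cebpe (8.70%) and in 28 of 63 without it (44.4%). In the Mll3-labelled library it was in 0 of 16 with Cebpe and in 45.9% of the rest. Setting that 0 to 3 counts allows up to 18.8%, and the exact interval reaches 20.6%. In the Mll4-labelled library it was in 14.5% of 131 with Cebpe and 34.6% of 888 without. Of cells with Gfi1, Irf8 was in 13.1% of 145 against 35.1% of the rest in the Mll4-labelled library. In the control it was in 3 of 12 (25%) against 36.5%, with overlapping intervals. For Cebpa the direction varied in this band: 38.7% of Mll4-labelled cells with Cebpa held Irf8 and 30.4% of those without. The shares were 33.3% and 35.3% in the control and 35.7% and 39.7% in the Mll3-labelled library. Over all granule-high cells Irf8 was found more often with Cebpa than without it in each of these libraries. There the shares were 12.7% and 10.8% in the control, with overlapping intervals. They were 15.3% and 6.55% in the Mll3-labelled and 34.2% and 22.1% in the Mll4-labelled library. Cells are not replicates and the shares describe these libraries. In the Mll4-labelled cells with 50 or more granule UMIs per 10000, outside the 4 ranges of other cell markers, the Cebpe shares were 14.5% and 36.9%.

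**Figure D3:**
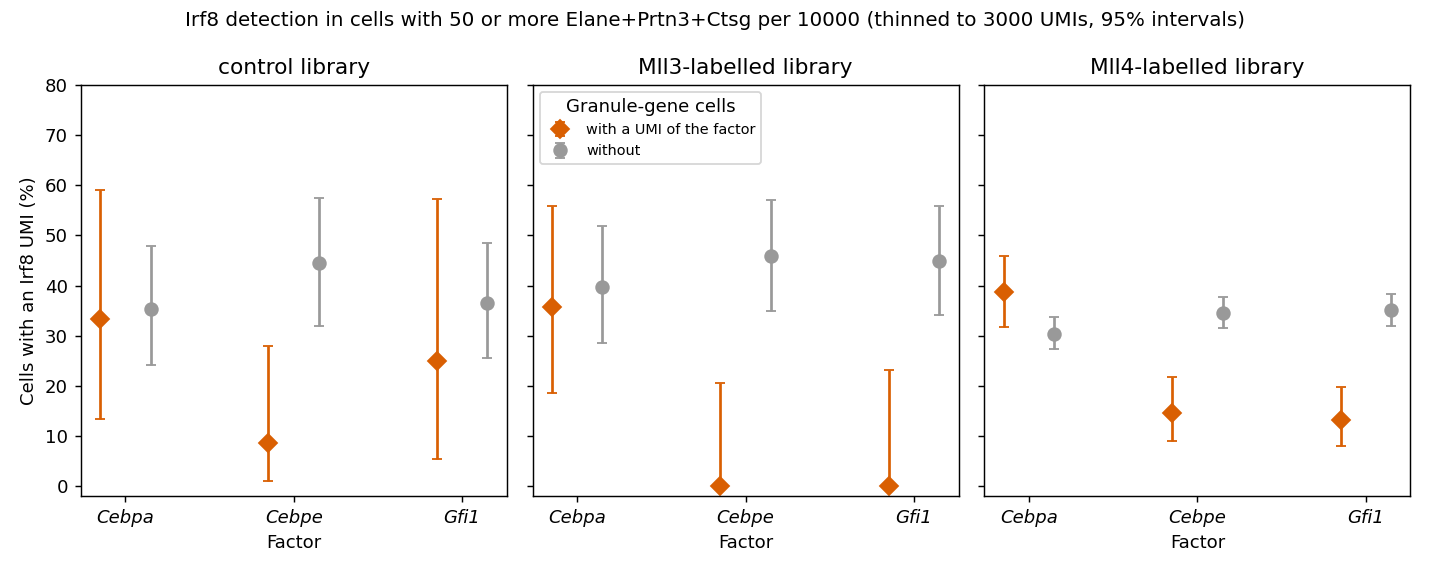
Share of cells with an Irf8 UMI (%, exact 95% intervals) among cells with 50 or more granule UMIs per 10000, thinned to 3000 UMIs, that held (diamonds) or lacked (circles) a UMI of Cebpa, Cebpe or Gfi1, for 3 libraries. In each library the share is lower in cells with Cebpe than in cells without it, 14.5% against 34.6% in the Mll4-labelled library, while the Cebpa shares lie close together.

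Marker genes placed the factors among other cell types. A cell was put in a marker range when it held at least 2 genes of a list at 5 or more UMIs per 10000, and 1 cell could fall in several ranges. In dendritic cells Irf8 reached 1280 CPM in the control (26 cells), 2233 in the Mll3-labelled (36) and 1017 in the Mll4-labelled library (74), beside 6.45, 6.91 and 9.83 in cells with HSC markers. The 74 dendritic-range cells held 12.7% of the Mll4-labelled Irf8 UMIs. Cells with macrophage markers, 740 in the Mll4-labelled library and 25 in each of the control and Mll3-labelled ones, held Cebpb at 492, 129 and 262 and Klf4 at 61.5, 11.8 and 19.3. In the control Cebpb was higher in cells with neutrophil precursor markers, at 203, and so was Klf4, at 31.7. Klf4 was highest in the dendritic range, at 120, 44.2 and 95.7 in the Mll4-labelled, control and Mll3-labelled libraries. Its control and Mll3-labelled values in the macrophage range rest on 3 and 5 UMIs. The 740 cells supplied 40.2% of Cebpb and 34.3% of Klf4 UMIs of their library. Removing all 4 ranges brought the Mll4-labelled Cebpb ratio over all cells from 1.12 to 0.37 on the log2 scale, which ended that call, and left Klf4 at 2.78 and Irf8 at 2.24.

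Cells with neutrophil precursor markers held the most Cebpe, 393 CPM in 54 control cells and 107 in 688 Mll4-labelled cells. Before thinning Cebpe was found in 46.3% and 17.3% of them. In this Mll4-labelled range 225 cells also carried plasma or mature B markers, 197 macrophage and 148 mast or basophil markers. The control counts were 1, 4 and 0, so the ranges do not hold the same mix of cells. Mast or basophil markers marked 585 Mll4-labelled cells, in which Gfi1 stood at 49.3, Cebpb at 156 and Spi1 at 157. In cells with innate lymphoid or T markers of the first 3 libraries, Gfi1 stood at 21.4, 41.7 and 60.6. The last 2 were above the whole-library level. The control value rests on 6 UMIs in 25 cells, with an interval of 7.85 to 46.6 that holds the whole-library 12.8. Spi1 was below its whole-library level in all 3 (42.8, 28.7 and 19.5). In cells with HSC markers Cebpa stood at 8.53, 10.0 and 7.06, Spi1 at 118, 117 and 84.2, and Gfi1 at 13.9, 12.3 and 12.8. Cebpb stood at 52.8, 82.1 and 44.4 there, highest in the Mll3-labelled library.

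**Figure D4:**
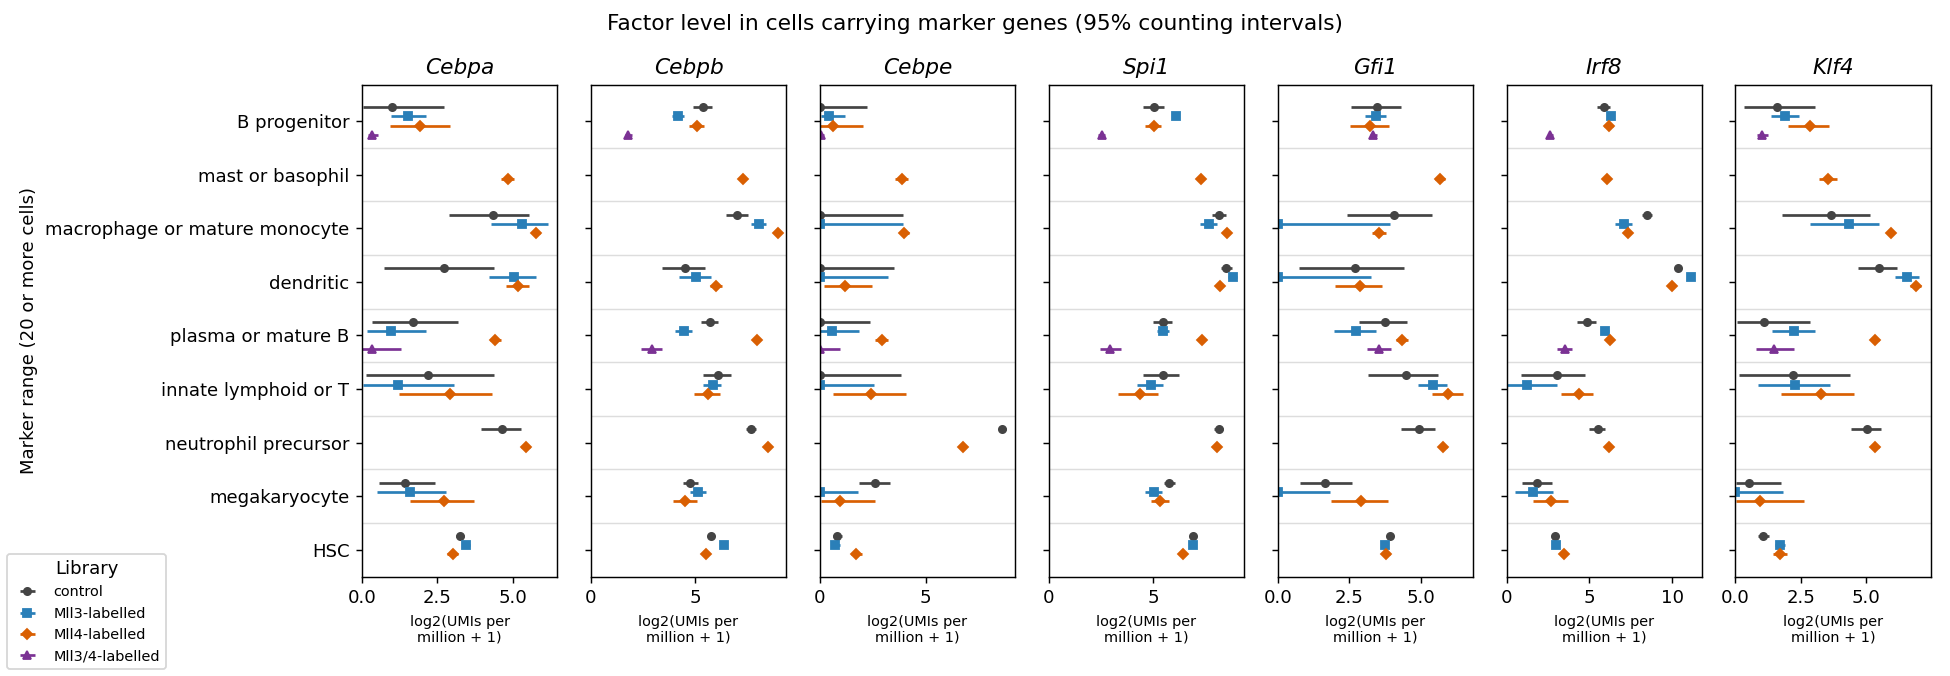
Level of each factor, as log2(CPM + 1) with 95% counting intervals, in cells carrying markers of the named types, for ranges of 20 or more cells. The Mll3-labelled neutrophil precursor range, with 15 cells and 76 Cebpb UMIs, is not drawn, so peaks are among the ranges drawn. Irf8 peaks in the dendritic range, Cebpe in the neutrophil precursor range and Cebpb in the macrophage range of the Mll3-labelled and Mll4-labelled libraries (in the control Cebpb is highest in the neutrophil precursor range), and the Mll3/4-labelled points lie left of the other 3 libraries in the B progenitor range for Cebpb, Spi1 and Irf8.

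The Mll3/4-labelled library was also set beside the cells of the other libraries in the B progenitor range. The libraries had 45, 234, 72 and 4723 such cells, of which 27, 76, 66 and 361 also carried plasma or mature B markers, so the ranges do not hold the same mix of cells. They held Spi1 at 32.2, 66.5, 31.3 and 4.79 CPM. Irf8 stood at 57.3, 77.8, 70.5 and 5.25 and Cebpb at 40.2, 17.2, 32.5 and 2.47. The Mll3/4-labelled library was lowest in all 3. Gfi1, at 10.1, 9.64, 8.39 and 9.0, had overlapping intervals in the 4 libraries.

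Against the 234 Mll3-labelled B progenitor cells, Spi1 was 13.9-fold lower (11.8 to 16.4) and Irf8 14.8-fold lower (12.7 to 17.3). With Cebpa, Cebpb and Klf4 that made 5 of 7 factors at least 2-fold lower, where 8.7% of genes were, or 21.6% with no minimum, since Cebpa and Klf4 averaged under 5 CPM. Without the cells that also carried plasma or mature B markers (158 and 4362 left, a setting chosen after seeing the data) Spi1 was 17-fold and Irf8 17.5-fold lower and 5 of 7 stayed lower, while the Klf4 interval, -2.19 to 0.20 on the log2 scale, came to span 0. That leaves 18 control and 6 Mll4-labelled cells, too few for a level. Cebpe had 2 UMIs on each side and was given no ratio. Against control cells Spi1 was 6.81-fold and Irf8 11-fold lower (6.11% of genes at least 2-fold lower), and against Mll4-labelled cells 6.59-fold and 13.5-fold (6.52%). Over all genes the log2 ratios had a median of 0.09 against Mll3-labelled, 0.55 against control and 0.86 against Mll4-labelled cells, so the last 2 sets of folds sit beside a shift of all genes the other way. The control values of Cebpa and Klf4 in this range were 1 and 2 UMIs, and their log2 ratio intervals, -4.69 to 3.45 and -2.88 to 2.13, span 0. The median depth was 8903 UMIs in the Mll3/4-labelled cells and 20984 to 23603 in the others, and the stage of the cells within the range was not tested.

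The 25 Mll3/4-labelled cells outside the B progenitor range, none with a barcode held by another library, carried 8 of the 21 Cebpa UMIs of the library, 34 of 158 Cebpb UMIs and 67 of 307 Spi1 UMIs. In these cells the levels were 12.1 for Cebpa, 51.6 for Cebpb and 102 CPM for Spi1. The same genes stood at 14.8, 49.7 and 124 in control cells outside that range.

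Surface antibody tags gave a division of the cells that uses no transcript. Gates were set with CD150, CD48 and CD135. The MPP4 gate took CD135+ cells without CD150. Of the CD135- cells, the HSC gate took those with CD150 and no CD48, MPP1 those with neither, MPP2 those with both and MPP3 those with CD48 alone. MPP2 and MPP3 are multipotent progenitors with a myeloid bias. In the Mll3/4-labelled library 25 cells lay outside the B progenitor range and 4 held HSC markers. Most cells in each of its gates therefore carried B progenitor markers, while 45 of 7274 control cells did. In the control Irf8 ran from 3.72 CPM in the HSC gate through 4.4, 18.6 and 23.8 in MPP1 to MPP3 to 72.7 in MPP4, the HSC and MPP1 values lying within their intervals. Cebpa ran 2.16, 7.58, 6.77, 21.1 and 19.9 in the same order, and Spi1 90.3, 125, 93.7, 136 and 143.

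In the MPP3 gate, the largest of the control and Mll4-labelled libraries, 6 of 7 factors were at least 2-fold higher in the Mll4-labelled library (7.98% of genes were) and 5 of 7 lower in the Mll3/4-labelled one (11.2%). Irf8 and Klf4 were the 2 higher in the Mll3-labelled library (1.39%), with log2 ratios of 1.34 and 1.30, Klf4 averaging under 5 CPM (12.2% with no minimum). With gates from antibody counts that were not centred, Cebpb in the Mll4-labelled library (1.89-fold) and Irf8 in the Mll3/4-labelled one (1.63-fold lower) were no longer called, which left 5 of 7 and 4 of 7. Irf8 in that gate was 23.8, 60.3, 125 and 9.50 CPM in library order. In the smaller MPP2 gate the Mll3-labelled Irf8 was 76.3 against 18.6 in the control.

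In the HSC gate the 4 libraries had 1726, 2707, 358 and 215 cells, and most of the 215 carried B progenitor markers. The Mll4-labelled library was 2-fold higher there for Cebpe and Klf4 (2 of 7, where 3.04% of genes were), each on 25 UMIs or fewer in either library and under 5 CPM (15.8% of genes with no minimum), and its Spi1 and Cebpb log2 ratios were -0.34 and -0.39. The Mll3/4-labelled library was lower for Spi1, 5.61 against 90.3, and Cebpb, 5.61 against 49.2 (2 of 7, where 12.7% were), while Gfi1 was 10.3 against 6.79. Klf4 was above 2-fold there on 3 UMIs, with a log2 interval of -1.40 to 2.82 (9.87% of genes were higher, or 25.4% with no minimum). Its Cebpa count was 0 in 215 cells, which puts it at least 1.54-fold lower. In the MPP4 gate, which held 2037 Mll3/4-labelled cells, all 7 factors were lower (12% of genes were), Cebpe on 1 UMI and Gfi1 at 8.14 against 17.8. Without centring Gfi1 was 1.93-fold lower, which left 6 of 7. CD135 tags formed 1 mode and all 5 gates use them, so every gate here rests on a division of a continuous signal.

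**Figure D5:**
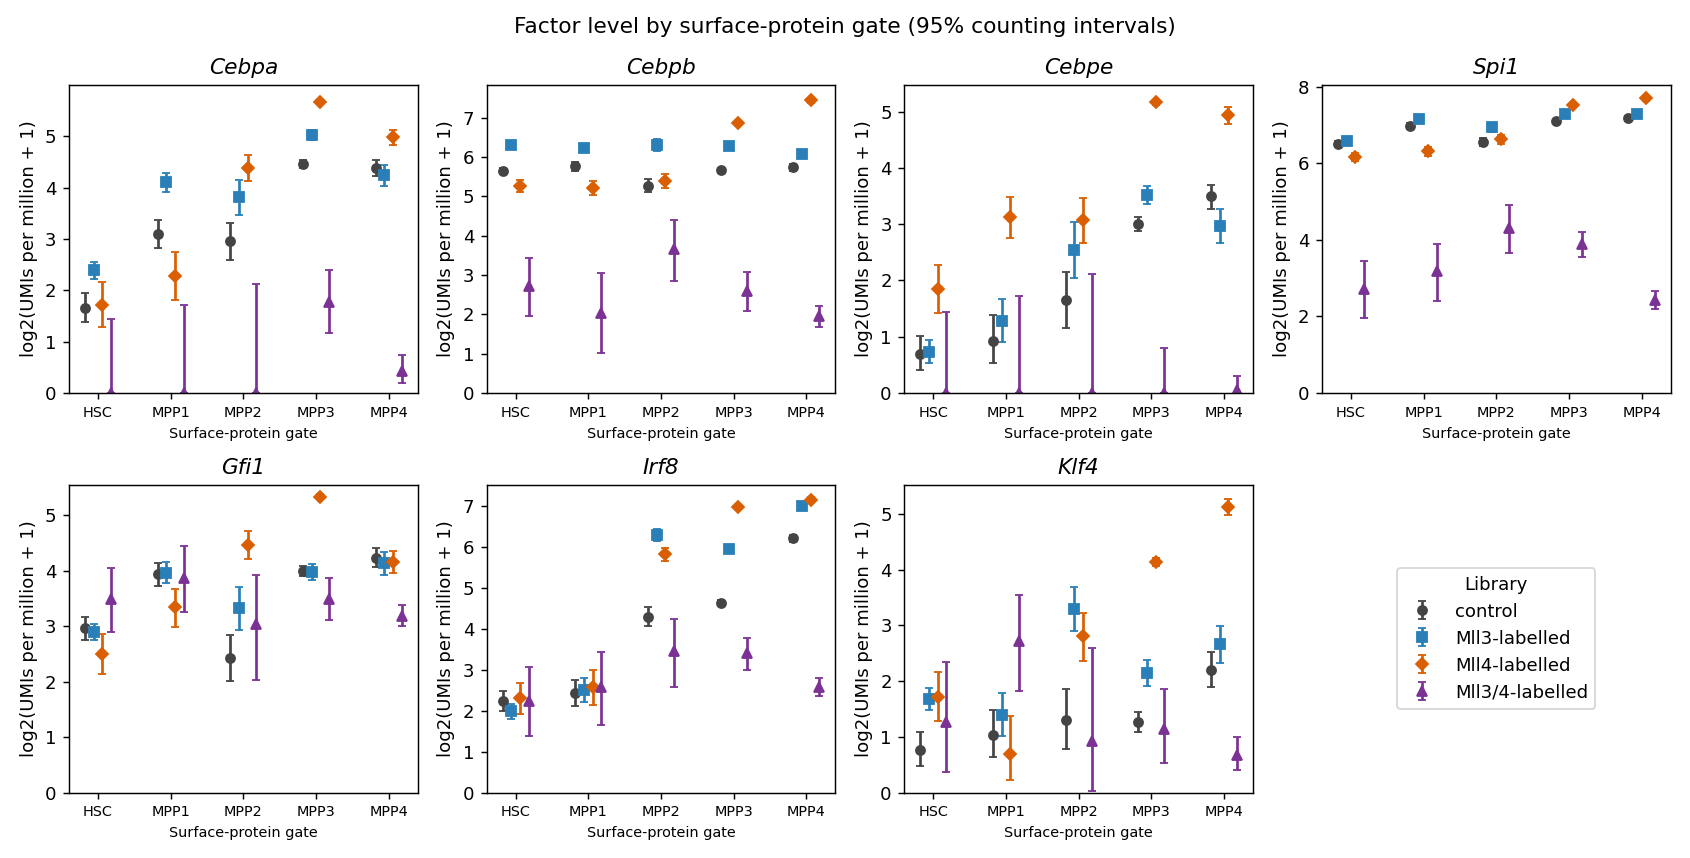
Level of each factor, as log2(CPM + 1) with 95% counting intervals, in 5 surface-protein gates of the 4 libraries. Irf8 lies between 2.97 and 4.98 CPM in the HSC and MPP1 gates of all 4 libraries and spreads from MPP2 on (without centring the Mll4-labelled MPP1 value is 12.5 against 5.25 in the control), while Spi1 and Cebpb of the Mll3/4-labelled library lie below the others in every gate.

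Over the 20 library and gate sums, the genes with levels most like Spi1 were Adssl1 (Pearson r = 0.99), Gpx1 (0.98) and Ptpn6 (0.98). Among those most like Cebpb were Lair1 (0.97) and Spi1 (0.97), and those most like Irf8 were Lgals3 (0.92), Rgs10 (0.90) and Clec12a (0.89). The sums share libraries and depth, and the values are descriptions. Cebpa, Cebpe, Gfi1 and Klf4 averaged under 20 CPM and were not matched.

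Genes around the factors were read from 5 lists, with all-gene median log2 ratios of 0.10, -0.10 and -0.10 for the 3 mutant libraries in order. The shares of genes at least 2-fold higher were 1.27%, 6.98% and 9.02% and of those lower 0.738%, 4.48% and 11.9%, in the same order, over genes averaging 5 CPM or more. Of 8 receptors, 4 were higher in the Mll4-labelled library, Csf1r (5.21, the macrophage growth factor receptor), Csf2rb (2.14), Csf2rb2 (2.02) and Il6ra (2.0), and the lowest were Flt3 at -1.0, just short of 2-fold, and Csf3r at -0.69. In the Mll3/4-labelled library 6 of 8 were lower, furthest for Csf3r, the granulocyte growth factor receptor (-7.26), and Il6ra (-6.09), and the highest were Kit (0.19) and Csf2ra (-0.32). None passed 2-fold in the Mll3-labelled library, with Csf2ra at 0.26 and Csf2rb2 at -0.77 as the extremes. The list medians were -0.28, 1.41 and -3.30 in the order given.

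Of 8 primary granule and early myeloid genes, all were higher in the Mll4-labelled library. They ran from Calr at 1.18 and Prtn3 at 2.11 to Igsf6 at 4.19 and Mpo at 4.44. In the Mll3/4-labelled library 7 were lower, from Hp at -6.78 and Prtn3 at -5.35 to Elane at -3.67, with Calr at -0.41. None passed in the Mll3-labelled library, where the median was 0.25, Elane (0.46) and Prtn3 (0.39) were highest, and Ms4a3 (-0.04) and Mpo (0.18) lowest. Elane, Prtn3 and Ctsg also divide the cells above, so their own difference there is no finding. Of 9 secondary granule genes, all were higher in the Mll4-labelled library, from Camp at 1.89 and Lcn2 at 2.28 to S100a8 at 3.29 and Mmp8 at 4.64. In the Mll3/4-labelled library 8 were lower, furthest for Chil3 at -9.23 (2 UMIs, interval -12.60 to -7.70) and Lcn2 at -8.70, and least for S100a8 at -7.18 among genes with a UMI there. Cd177 had 0 UMIs, which puts it at least 5.05 lower on the log2 scale. Mmp8 had 0 UMIs there and 7 in the control. In the Mll3-labelled library 5 of the 9 were lower: Ltf (-1.73), S100a8 (-1.62), S100a9 (-1.55), Cd177 (-1.39) and Camp (-1.23), and the highest were Mmp8 (-0.28) and Chil3 (-0.55). The cells with neutrophil precursor markers, defined by 6 of these genes, numbered 15 there against 54 in the control.

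Of 8 monocyte genes, all were higher in the Mll4-labelled library, highest for F13a1 (6.18) and Cx3cr1 (5.66) and lowest for Lyz2 (2.26) and Tyrobp (2.73), and 7 were lower in the Mll3/4-labelled one, with Tyrobp at -4.86 and Lyz2 at -4.80. Ctss, a lysosomal protease also used by B cells, was the one not lower (0.35), with F13a1 next at -1.56. In the Mll3-labelled library Tyrobp was lower (-1.38), Cx3cr1 stood at -0.01, and Ly6c2 (0.96) and Ly86 (0.68) were highest. Macrophage markers moved with this list: all 6 summed to 13.9, 13.3, 491 and 6.24 CPM, and their part in the list's difference was not tested.

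Of 12 partner and opposing factors, 2 were higher in the Mll3/4-labelled library, where 9.02% of genes averaging 5 CPM or more were. Trib1, whose protein directs C/EBP alpha to degradation, stood at 36.5 against 3.30 CPM. Irf4, a partner of PU.1 in B cells, stood at 8.45 against 0.846. Their log2 ratios were 3.46 and 3.31. Irf4 averaged under 5 CPM, so it is not among those genes, and with no minimum the share was 20%, close to 2 of 12. Lower were Gata2 (-6.10), Gfi1b (-5.66), a paralogue of Gfi1 used by megakaryocytes and red cells, and Cebpd (-3.50). In the Mll4-labelled library Irf4 (2.95), Id2 (2.67), Cebpd (2.27), Zeb2 (1.61) and Trib1 (1.17) were higher and Gfi1b (-1.22) lower, with Myb next at -0.12. In the Mll3-labelled library Egr1 (1.70), an early response gene, and Trib1 (1.08) were higher, and Myb (-0.24) and Fli1 (-0.11) were lowest.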

How the data were processed

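The authors deposited raw counts of UMIs and antibody tags per cell barcode, 1 sparse matrix per library, for 32285 genes and 6 antibodies. Per the labels' protocols the libraries used droplet chemistry with feature barcodes, and per the submitters' processing notes Cell Ranger 6.1.1 and build mm10 were used. The annotation release and the rule that chose the barcodes are not given in the sources used here. Coordinates and overlapping genes are from GENCODE M21 on GRCm38, the same build, which held 99.6% of the gene identifiers.

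Groups came from the sample titles, 1 library each. UMIs were summed over cells and scaled to CPM (UMIs per 1000000 UMIs of the sum). Ratios are log2 after adding 0.5 UMIs to each sum, and a side at 0 was set to 3 UMIs to give a bound. Intervals at the 95% level are exact Poisson for sums, Clopper-Pearson for shares and conditional exact binomial for ratios. UMIs are not replicates of a condition, so intervals cover counting error only. Percentages of genes past 2-fold cover genes averaging 5 CPM or more over the libraries compared. Ratios and intervals were tested on simulated data.

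Scrublet (scanpy 1.11.5) called 3, 3, 171 and 1 doublets, too few to have worked in 3 of the 4 libraries, so doublets were kept and the highest scores were removed as an alternative. Gates used the centred log ratio over the 6 antibodies, with 1 threshold per antibody from a Gaussian mixture (scikit-learn 1.9.0). TMM scaling used edgeR 4.0.16. Named genes were all 7 factors, and of each list the highest and lowest pairs and any group past the fold of 5 or fewer. Genes alike to a factor were the 3 with the highest correlation among genes averaging at least 20 CPM, of which 1 is not reported here. The factors, lists, markers and tests were chosen with earlier results of these data known, so no list is independent support.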

Additional observations from a re-analysis of the deposited data

Results flagged for a closer look

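Cebpb differed in direction between libraries under the same division of cells. Its log2 ratio of granule-high over granule-low cells was 0.6404 in the control and 0.6287 in the Mll3-labelled library, but -1.168 in the Mll4-labelled one. Klf4 had the same contrast, 0.7844 in the Mll3-labelled and -1.426 in the Mll4-labelled library. These differences were not tested, since each library is 1 sample. Beside them, the cells with macrophage markers, 740 in the Mll4-labelled library and 25 in each of the other 2, held Cebpb at 492 and Klf4 at 61.5 CPM there.

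The 2909 Mll4-labelled barcodes that failed the cell filter held Irf8 at 87.9 CPM, against 22.0 in the 408 that failed in the control. The kept cells of these libraries held 106 and 23.3.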

How the results depend on the processing

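Of 770 single-factor log2 ratios under other settings, 719 stayed on the same side of the 2-fold threshold and 51 did not. The sign changed in 26 that had been under 2-fold and in 4 that had been at or past it. Those 4 were Irf8 in granule-high over granule-low Mll3-labelled cells with the division at 5 (-0.62), and, with the low side limited to cells with 0 granule UMIs, the same ratio in the control (-0.59) and the Mll3-labelled library (-1.47) and Mll4-labelled over control low cells (-0.45). The single Mll3-labelled factor higher than control became 0 with 2000 genes and 5% mitochondrial UMIs, cells weighted equally, mitochondrial and ribosomal genes out of the totals, TMM scaling, and, both chosen after seeing the data, the control's granule mix and removal of shared barcodes. Within libraries, the 4 Mll3-labelled factors higher in granule-high cells became 2 with equal weight, 2 with the division at 5 and 7 at 50, and the control's 3 became 7 at 50. The 2 Mll4-labelled factors lower there became 0 without the 4 marker ranges and 1 at 5. The low side at 0 UMIs gave 1 lower factor in the control and 1 in the Mll3-labelled library, where there had been none. Against control, the Mll4-labelled granule-high cells had 5 higher at 5, and 0 higher and 2 lower at 50. The Mll3-labelled granule-high cells had 0 higher at 50, and granule-low cells 1 higher at 5, 1 higher at 50 and 0 lower at 50. With antibody counts not centred, the factors higher than control in the HSC gate went from 1 to 2 for the Mll3-labelled library, and in the MPP1 gate from 1 to 2 for Mll3, 1 to 3 for Mll4 and 1 to 0 for Mll3/4, and in the MPP4 gate from 0 to 1 for Mll3. The cause of these moves was not tested.

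The percent of genes past 2-fold moved with the expression minimum. With 20 CPM the Mll3-labelled values were 0.575 higher and 0.345 lower. With no minimum they were 12.2 and 9.99, those of the Mll4-labelled library 22.8 and 11.7, and those of the Mll3/4-labelled library 20 and 22.2. No paired analysis was possible because each genotype had 1 library. Klf4 and Cebpe in the smaller sets of cells rest on few UMIs, as do the Mll3/4-labelled counts of Klf4, Cebpe and Cebpa (52, 2 and 21). Their intervals are wide. Over all cells the Mll4-labelled log2 intervals were narrower, 2.33 to 2.58 for Cebpe and 3.16 to 3.61 for Klf4.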
